A study of Mus musculus with 6 samples.

Results

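Proteins destined for secretion, insulin among them, enter the endoplasmic reticulum (ER) through a channel and leave it in coated vesicles. The genes described here encode that machinery: the signal recognition particle (SRP), the Sec61 channel with Sec62 and Sec63, the translocon-associated protein (TRAP) complex, the signal peptidase, the COPII and COPI coats, the p24 cargo receptors, the Sec22 family, and the Sec14-like genes that share only the name. The rule that picks them uses the gene name and the protein-coding biotype and no measured value, but the set was proposed with earlier results of these data known. Of the 54532 genes listed, 65 matched, and 61 of these had a mean of at least 1 FPKM and were tested among 13723 genes. FPKM are fragments scaled by the authors to gene length and by a factor per library whose basis is not given. Another 2 matching names, Tmed10-ps and Spcs2-ps, are annotated as pseudogenes and are not members.

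RNA came from mouse pancreatic islets labelled as beta cells, in 3 control libraries (genotype labelled wild type) and 3 libraries of a Bcas2 conditional knockout, labelled Cko and called Bcas2 cKO here, which the design text describes as a knockdown. BCAS2 belongs to the Prp19 complex of the spliceosome, and the series title ties it to insulin synthesis and secretion. The labels name no Cre driver, deleted exon, age or sex and do not say that each library came from its own animal, so the p-values reflect only how far these libraries scatter, which may be technical scatter. Libraries are named by the number in their column: 1, 3 and 4 for control, and 3, 4 and 5 for Bcas2 cKO, where no label holds the number 5. The label Cko1 in turn has no column, so that column and that label are both unmatched.

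SRP binds the signal peptide as it leaves the ribosome and brings the ribosome to the Sec61 channel. Signal peptidase removes the peptide inside the ER. COPII coats then form at ER exit sites and carry cargo towards the Golgi, COPI coats carry proteins back, and p24 proteins of the TMED family travel in both. Beta cells pass very large amounts of preproinsulin through this route. In many cells the unfolded protein response raises these genes through the factors XBP1 and ATF6.

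Bcas2 itself was at 10.3, 15.04 and 11.2 FPKM in control libraries 1, 3 and 4 and at 8.76, 8.40 and 9.14 FPKM in Bcas2 cKO libraries 3, 4 and 5. The groups did not overlap, but the threshold was missed (log2 fold change -0.42, SE 0.13, limma adjusted p 0.083). Reads on genes came to 15170439 to 16904326 per library. Ins1 and Ins2 held 18.5 to 26.7% of the reads in control against 13.3 to 14.6% in Bcas2 cKO, so the defining transcripts of beta cells were present in every library. Acinar transcripts, which come from the enzyme-making cells around the islets and also use the ER heavily, held 0.724 to 1.75% in control against 2.36 to 6.50% in Bcas2 cKO. Of 34 tested acinar markers 15 rose and none fell, all 34 had a positive fold change, and their summed level was 6014 to 13868 FPKM in control against 17422 to 52369 FPKM in Bcas2 cKO. Of all acinar markers found, Prss1 was the one with a 0 in any library. Some other marker lists moved with the groups too. Of all genes tested, 14.5% were called in either direction. Of 17 beta cell identity genes, insulin included, 5 fell and none rose, with 12 negative and 5 positive fold changes. In 8 of them every Bcas2 cKO value was below the control range. Mafa (0.60 on the log2 scale) and Pcsk1 (0.32) were higher in all 3 Bcas2 cKO libraries without being called. The sum of the 17 genes, mostly Ins1 and Ins2, was 167046 to 266422 FPKM in control against 109664 to 129486 FPKM in Bcas2 cKO. Of 9 tested macrophage markers 5 rose and none fell, all 9 with positive fold changes, and their summed level was 186 to 245 FPKM in control against 247 to 329 FPKM in Bcas2 cKO. Of 8 ductal markers 2 rose and none fell, with sums of 258 to 311 FPKM against 512 to 655 FPKM, and of the ductal markers found Cftr had a 0 in some library. Of 9 genes of the other islet cell types 2 rose and none fell, with overlapping sums of 32464 to 38200 FPKM against 37161 to 40143 FPKM. Of 10 endothelial and 9 tested stellate markers none was called (limma, 0 and 2 at an unadjusted p under 0.05). Their sums overlapped between control and Bcas2 cKO, at 126 to 152 against 123 to 160 FPKM and at 54.1 to 64.2 against 55.6 to 83.4 FPKM. The part of acinar RNA and of these other cell types in the results below was not tested, and in bulk RNA fewer cells of a type and less RNA per cell cannot be told apart.

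To show what lies in front of members that changed, the RefSeq promoters (GRCm38.p6) of Sec62, Tmed3 and Tmed6 are printed 5′ to 3′ on the strand of the gene. Each runs from 250 bases before the RefSeq start up to the start or to the first base of the deposited gene model, whichever comes first.
Sec62, chr3:30792626-30792874, plus strand: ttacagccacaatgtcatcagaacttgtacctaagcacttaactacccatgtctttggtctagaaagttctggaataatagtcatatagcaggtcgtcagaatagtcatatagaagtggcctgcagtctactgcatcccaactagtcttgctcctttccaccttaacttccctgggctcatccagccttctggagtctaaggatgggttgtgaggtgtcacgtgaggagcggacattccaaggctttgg
Tmed3, chr9:89705069-89705293, minus strand: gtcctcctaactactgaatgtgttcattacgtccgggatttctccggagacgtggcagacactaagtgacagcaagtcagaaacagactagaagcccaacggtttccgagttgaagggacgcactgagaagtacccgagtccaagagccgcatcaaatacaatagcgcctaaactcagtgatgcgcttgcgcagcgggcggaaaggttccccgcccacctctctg
Tmed6, chr8:107065645-107065894, minus strand: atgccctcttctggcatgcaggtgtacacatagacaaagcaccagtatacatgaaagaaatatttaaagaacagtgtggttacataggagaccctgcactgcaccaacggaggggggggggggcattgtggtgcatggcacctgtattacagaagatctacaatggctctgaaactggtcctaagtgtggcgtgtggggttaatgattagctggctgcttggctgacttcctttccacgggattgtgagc
None of the motifs searched below occurs in these stretches, which says only that those letters are not there. Of the other members that changed, Spcs3 had no match in the promoter table, and the window of Sec16b holds both TGACGTGG, printed below, and a CCAAT box.

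Promoter windows from 250 bases before to 50 bases after the start were found for 55 of the 65 members, in 60 windows, and both strands were searched. The XBP1-type core TGACGTGG occurred in 5 of the 60 windows (8.33%), against 222 of 32851 windows of all genes (0.676%). All 5 belong to the coat classes, Sec16b, Sec23a and Sec24d of COPII and Copb1 and Copb2 of COPI. Counted from the RefSeq start as 0, the motif begins at -28 in Copb1, -7 in Copb2, -44 in Sec16b and -26 in Sec24d. In Sec23a it begins at 6, after the start. In all 5 genes the motif lies inside the deposited gene model. The 5 matches are printed below with the motif in capitals and 11 bases on each side, turned so that the motif reads 5′ to 3′.
Copb1, chr7:114254690-114254719: aagtccttggcTGACGTGGaagggggcggg
Copb2, chr9:98563713-98563742: ggccaacccacTGACGTGGaacttccggga
Sec16b, chr1:157506741-157506770: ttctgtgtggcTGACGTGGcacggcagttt
Sec23a, chr12:59011993-59012022: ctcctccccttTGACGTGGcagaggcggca
Sec24d, chr3:123267459-123267488: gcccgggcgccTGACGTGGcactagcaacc
The ER stress element (CCAAT and CCACG with 9 bases of any kind between them) and its shorter form (ATTGG and CCACG with 1 base between them) occurred in none of the 60 windows, and in 0.119% and 0.0365% of all windows. The cAMP response element TGACGTCA occurred in 1 window, that of Cope, or 1.67% against 1.79% of all windows. The CCAAT box alone, which is part of the ER stress element, occurred in 27 of the 60 windows (45.0%) and in 37.4% of all. A match is a description of the sequence, and of the 5 genes with TGACGTGG only Sec16b passed the expression test, as described below.

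Few of these genes changed in Bcas2 cKO. Of the 61 tested, Sec62, Spcs3, Tmed3 and Sec16b fell and Tmed6 rose (limma with trend on log2(FPKM + 1), Benjamini-Hochberg adjusted p under 0.05 over all 13723 genes). That is 8.20% of the members, against 14.5% of all genes tested, 6.97% rises and 7.55% falls. Of the 56 members that did not pass, 48 had a fold change within 0.25 of zero on the log2 scale. The median log2 fold change of the members was -0.05, and that of all genes tested was -0.03. Fold changes were negative in 39 of the 61 members (63.9%), against 53.8% of all genes tested. The sign of the members' median turned with voom on recovered reads (0.09, with 19 of 61 negative in place of 39, all genes 0.11) and with a block on shared library numbers (0.07, with 26 negative, all genes -0.03). The 3 control and 3 Bcas2 cKO values did not overlap for 14 members, 10 lower and 4 higher, or 23.0% against 38.0% of all genes tested.

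**Figure D1:**
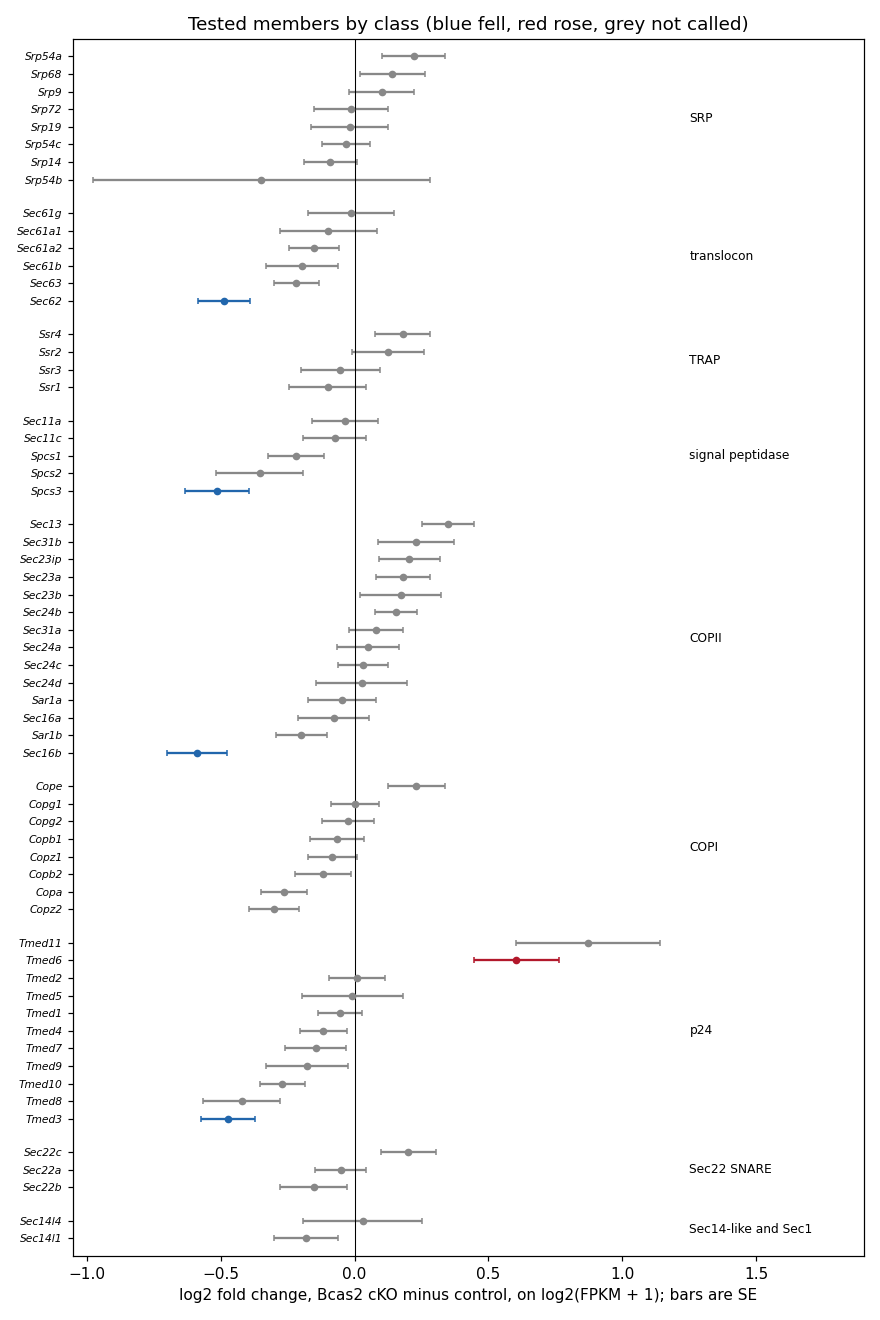
Log2 fold change (x axis, Bcas2 cKO minus control on log2(FPKM + 1), bars are SE) of the 61 tested members, grouped by class. Sec62, Spcs3, Sec16b and Tmed3 (blue) fell, Tmed6 (red) rose, and the other 56 (grey) did not pass the test.

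In the SRP class, which recognises signal peptides, none of 8 genes passed the test (limma, 0 also at an unadjusted p under 0.05 and 0 with voom on recovered reads). Srp14, part of the domain that slows translation, was at 55.2, 68.8 and 60.1 FPKM in control libraries 1, 3 and 4 and at 55.2, 58.9 and 58.1 FPKM in Bcas2 cKO libraries 3, 4 and 5. Srp68, an RNA-binding subunit, was at 49.6, 48.8 and 48.6 FPKM in control against 50.8, 64.8 and 48.2 FPKM in Bcas2 cKO. Both pairs of groups overlapped, and Bcas2 cKO library 4 held the highest Srp68 value of the 6. The signal peptide-binding subunit is encoded in the mouse by the near-identical neighbours Srp54a, Srp54b and Srp54c on chromosome 12, among which the division of reads is uncertain. Srp54b varied most of all members, from 2.53 to 8.33 FPKM in control and from 0.771 to 8.65 FPKM in Bcas2 cKO (log2 fold change -0.35, SE 0.63). The 3 copies together came to 17.4, 12.1 and 13.5 FPKM in control against 13.9, 19.1 and 9.10 FPKM in Bcas2 cKO, again with overlap.

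In the translocon, the channel subunits did not pass the test and Sec62 fell. Sec62 (ENSMUSG00000027706, chromosome 3, 30792875 to 30821263, GRCm38), which works with Sec63 to open the channel for precursors that SRP serves poorly, was at 40.0, 48.7 and 41.8 FPKM in control against 28.9, 31.1 and 32.0 FPKM in Bcas2 cKO. The highest Bcas2 cKO value lay under the lowest control value. The means were 43.5 ± 4.59 and 30.7 ± 1.59 FPKM (SD, n = 3 each), a ratio of 0.705, with a log2 fold change of -0.49 (SE 0.10, limma adjusted p 0.022). Sec63, its partner with a J domain, was at 18.6, 19.4 and 19.8 FPKM in control against 16.5, 17.8 and 15.0 FPKM in Bcas2 cKO, lower in all 3 without passing the test (-0.22, SE 0.08, limma adjusted p 0.13). Sec61b, the small beta subunit of the channel and the member of highest mean level, was at 87.5, 112 and 91.7 FPKM in control against 80.4, 96.8 and 76.9 FPKM in Bcas2 cKO, with overlap. The pore-forming subunit Sec61a1 was at 36.2 ± 1.93 and 34.5 ± 8.77 FPKM, 5.60 to 9.06 times its paralog Sec61a2 in the FPKM of the 6 libraries. All 6 translocon genes had negative fold changes, against 53.8% of all genes tested, with a class median of -0.17. That median was below zero in all 18 other fits made, while the number of negative members was between 4 and 6.

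The TRAP complex, which assists the channel with some signal peptides including that of preproinsulin, held no gene that passed the test among 4 (limma, 0 also at an unadjusted p under 0.05 and 0 with voom). Ssr2 was at 77.6, 71.4 and 65.6 FPKM in control against 79.1, 91.0 and 65.8 FPKM in Bcas2 cKO. Ssr3 was at 58.3, 57.3 and 64.2 FPKM in control against 61.2, 67.8 and 46.0 FPKM in Bcas2 cKO. Ssr4 was at 58.1, 62.8 and 50.9 FPKM in control against 62.4, 69.3 and 62.8 FPKM in Bcas2 cKO. Ssr1 was at 20.2 ± 0.592 and 19.0 ± 3.89 FPKM (SD, n = 3 each). In each of the 4 genes the groups overlapped and Bcas2 cKO library 4 was the highest library.

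Signal peptidase, which cuts the signal peptide off, had the lowest class median, -0.22 over 5 genes, all negative. Spcs3 (ENSMUSG00000054408, chromosome 8, 54520433 to 54529998), an accessory subunit the enzyme needs, was at 77.9, 75.0 and 80.5 FPKM in control against 56.6, 61.6 and 45.6 FPKM in Bcas2 cKO. The groups were apart, with Bcas2 cKO library 5 the lowest. The means were 77.8 ± 2.73 and 54.6 ± 8.16 FPKM (SD, n = 3 each), a ratio of 0.702, and Spcs3 fell by 0.51 on the log2 scale (SE 0.12, limma adjusted p 0.035). Spcs1 was at 59.8, 70.9 and 58.2 FPKM in control against 50.9, 57.8 and 52.8 FPKM in Bcas2 cKO, lower in all 3 but not called (-0.22, SE 0.10, limma adjusted p 0.20). Spcs2 was at 53.5, 51.5 and 53.3 FPKM against 40.5, 52.5 and 32.5 FPKM, where Bcas2 cKO library 4 reached the control range. The catalytic subunits, which the cell can use in place of each other, differed least: Sec11c was at 28.7 ± 2.71 and 27.3 ± 3.45 FPKM and Sec11a at 11.0 ± 1.06 and 10.8 ± 1.64 FPKM. The FPKM of Spcs3 over that of Sec11c was 2.50 to 3.15 in control against 1.88 to 2.17 in Bcas2 cKO. Of all genes tested 53.8% had negative fold changes. The class median was below zero in all 18 other fits, while the number of negative members was between 3 and 5. It was 3 with voom, with a block on shared library numbers and without Bcas2 cKO library 5. Spcs1 overlaps the gene Glt8d1 on the opposite strand, and no label says whether counting used strand.

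**Figure D2:**
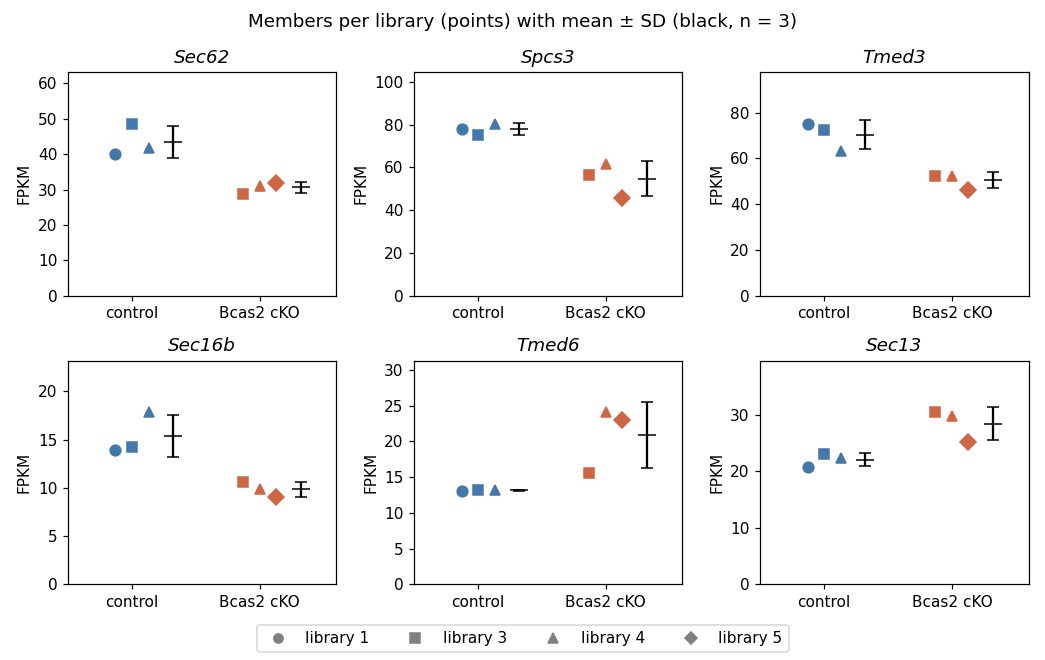
FPKM (y axis, from 0) of Sec62, Spcs3, Tmed3, Sec16b, Tmed6 and Sec13 in each of the 3 control (blue) and 3 Bcas2 cKO (orange) libraries, marked by library number, with mean and SD in black. The groups do not overlap in any of the 6 panels, and the 3 control values of Tmed6 lie between 13.1 and 13.2 FPKM.

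In the COPII class 1 of 14 genes fell, none rose, and 10 had positive fold changes (median 0.07). Sec16b (ENSMUSG00000026589, chromosome 1, 157506728 to 157568425), a shorter relative of the exit-site scaffold Sec16a, was at 13.9, 14.3 and 17.8 FPKM in control against 10.6, 9.86 and 9.07 FPKM in Bcas2 cKO. All 3 Bcas2 cKO libraries lay below the control range. The means were 15.3 ± 2.17 and 9.84 ± 0.760 FPKM (SD, n = 3 each), a ratio of 0.641, and Sec16b fell by 0.59 on the log2 scale (SE 0.11, limma adjusted p 0.019). Sec16a was at 27.6, 23.5 and 29.1 FPKM in control against 26.7, 28.2 and 21.1 FPKM in Bcas2 cKO, with overlap. The FPKM of Sec16b over that of Sec16a was therefore 0.504 to 0.613 in control against 0.350 to 0.429 in Bcas2 cKO.

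The coat itself differed little. Sar1a, the small GTPase that starts assembly, was at 55.9, 69.4 and 64.6 FPKM in control against 60.3, 69.9 and 54.0 FPKM in Bcas2 cKO. Sec31a, of the outer cage, was at 47.3, 41.2 and 45.0 FPKM in control against 46.9, 51.8 and 42.7 FPKM in Bcas2 cKO. Neither gene separated the groups. Sec13, which shares the outer cage with Sec31 and also belongs to the nuclear pore, was at 20.8, 23.2 and 22.3 FPKM in control against 30.5, 29.8 and 25.1 FPKM in Bcas2 cKO, higher in all 3 (log2 fold change 0.35, SE 0.10, limma adjusted p 0.055). It missed the threshold as reported and passed it in 7 of 18 other fits, with adjusted p from 0.017 to 0.18 over all 18.

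Paralogs of the coat were set side by side on the FPKM scale, which is per length. The cargo-binding subunits ranked in the order Sec24c (28.8 ± 0.567 FPKM in control), Sec24d (23.1 ± 1.82), Sec24b (12.4 ± 0.741) and Sec24a (5.47 ± 0.641), and no neighbours in that order overlapped in control. In Bcas2 cKO the means were 29.5 ± 3.14, 23.9 ± 5.48, 14.0 ± 0.738 and 5.71 ± 0.743 FPKM, where Sec24c and Sec24d overlapped and the others did not. Their sum was 66.0 to 71.8 FPKM in control against 63.4 to 80.2 FPKM in Bcas2 cKO. Sec23b, the more abundant inner-coat paralog, was at 21.1 ± 0.811 and 24.2 ± 5.21 FPKM and Sec23a at 9.79 ± 1.15 and 11.2 ± 0.659 FPKM. Sec31b was near the filter, at 1.02 ± 0.203 and 1.36 ± 0.178 FPKM. Sar1b and Sec24a lie head to head on chromosome 11 with 52 bases between them, and neither passed the test: Sar1b was at 46.7 ± 3.82 and 40.6 ± 2.89 FPKM and Sec24a as given above, with fold changes of -0.20 (SE 0.10) and 0.05 (SE 0.11) on the log2 scale.

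No COPI gene passed the test among 8 (limma, 2 at an unadjusted p under 0.05 and 0 with voom). Copa, the alpha subunit of coatomer, was at 55.0, 55.8 and 57.7 FPKM in control against 48.3, 49.4 and 42.4 FPKM in Bcas2 cKO. It was lower in all 3 Bcas2 cKO libraries (log2 fold change -0.26, SE 0.09, limma adjusted p 0.087). Copa overlaps Ncstn on the opposite strand, a gene with a mean of 29.8 FPKM. Cope, the epsilon subunit, leaned the other way with overlap, at 54.7, 48.8 and 44.6 FPKM in control against 55.7, 63.7 and 54.6 FPKM in Bcas2 cKO (0.23, SE 0.11, limma adjusted p 0.19). Of the paralogous zeta subunits, Copz2 was lower in all 3 Bcas2 cKO libraries, at 14.8 ± 0.679 and 11.9 ± 1.22 FPKM (-0.30, SE 0.09, limma adjusted p 0.072), and Copz1 overlapped, at 25.2 ± 0.521 and 23.8 ± 2.51 FPKM. Copg1 and Copg2, the gamma subunits, were at 29.2 ± 2.22 and 29.2 ± 2.001 FPKM and at 8.45 ± 0.995 and 8.27 ± 0.530 FPKM. Copb1 and Copb2 were at 37.4 ± 0.836 and 35.9 ± 4.36 FPKM and at 42.6 ± 0.844 and 39.4 ± 5.08 FPKM.

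The p24 class, taken by the name Tmed with no check that each gene encodes a p24 protein, held both directions. Of 11 tested genes Tmed3 fell and Tmed6 rose, and both belong to the gamma subfamily of the p24 cargo receptors. Tmed3 (ENSMUSG00000032353, chromosome 9, 89699206 to 89705068) was at 75.2, 72.5 and 63.4 FPKM in control against 52.5, 52.4 and 46.3 FPKM in Bcas2 cKO. All Bcas2 cKO values lay below the control range. The means were 70.4 ± 6.18 and 50.4 ± 3.54 FPKM (SD, n = 3 each), a ratio of 0.716, and Tmed3 fell by 0.47 on the log2 scale (SE 0.10, limma adjusted p 0.025).

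Tmed6 (ENSMUSG00000031919, chromosome 8, 107061476 to 107065644) was at 13.1, 13.2 and 13.2 FPKM in control against 15.6, 24.1 and 23.0 FPKM in Bcas2 cKO. The control values were nearly equal, and Bcas2 cKO library 3 lay only a little above them. The means were 13.2 ± 0.0559 and 20.9 ± 4.64 FPKM (SD, n = 3 each), a ratio of 1.59, and Tmed6 rose by 0.60 on the log2 scale (SE 0.16, limma adjusted p 0.047). These values rest on 155 to 181 reads in a control library and 246 to 369 in a Bcas2 cKO one, the fewest of the 5 called members. Bcas2 cKO library 3 was also the one of its group with the lowest acinar share of reads, 2.36% against 3.08% and 6.50% in libraries 4 and 5. Tmed6 was higher in library 4 than in library 5, and nearly equal in the controls, whose acinar shares ran from 0.724 to 1.75%. The part of acinar RNA in the Tmed6 values was not tested. Tmed11, which passed the expression filter through the Bcas2 cKO libraries, was at 0.992, 0.485 and 0.803 FPKM in control against 1.95, 1.34 and 3.72 FPKM in Bcas2 cKO, on 5 to 12 and 18 to 49 reads (0.87, SE 0.27, limma adjusted p 0.074), and its highest value was in Bcas2 cKO library 5.

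The other genes of the class did not pass the test. Tmed2, the beta subfamily member and the p24 gene of highest level, was at 82.3, 77.0 and 70.0 FPKM in control against 77.2, 83.9 and 70.0 FPKM in Bcas2 cKO. Tmed4, of the alpha subfamily, was at 67.2, 73.5 and 65.8 FPKM in control against 65.7, 65.6 and 59.0 FPKM in Bcas2 cKO, just apart, and Tmed10, of the delta subfamily, was at 48.1 ± 1.82 and 39.8 ± 2.72 FPKM, lower in all 3 (-0.27, SE 0.08, limma adjusted p 0.074). The FPKM of Tmed3 over that of Tmed2 was 0.906 to 0.942 in control against 0.625 to 0.680 in Bcas2 cKO, and over that of Tmed10 it was 1.38 to 1.53 and 1.24 to 1.31. Tmed8 was at 30.6 ± 5.10 and 22.5 ± 2.84 FPKM with overlap, and the remaining 4 genes, Tmed9, Tmed7, Tmed1 and Tmed5, overlapped with log2 fold changes from -0.18 to -0.01.

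**Figure D3:**
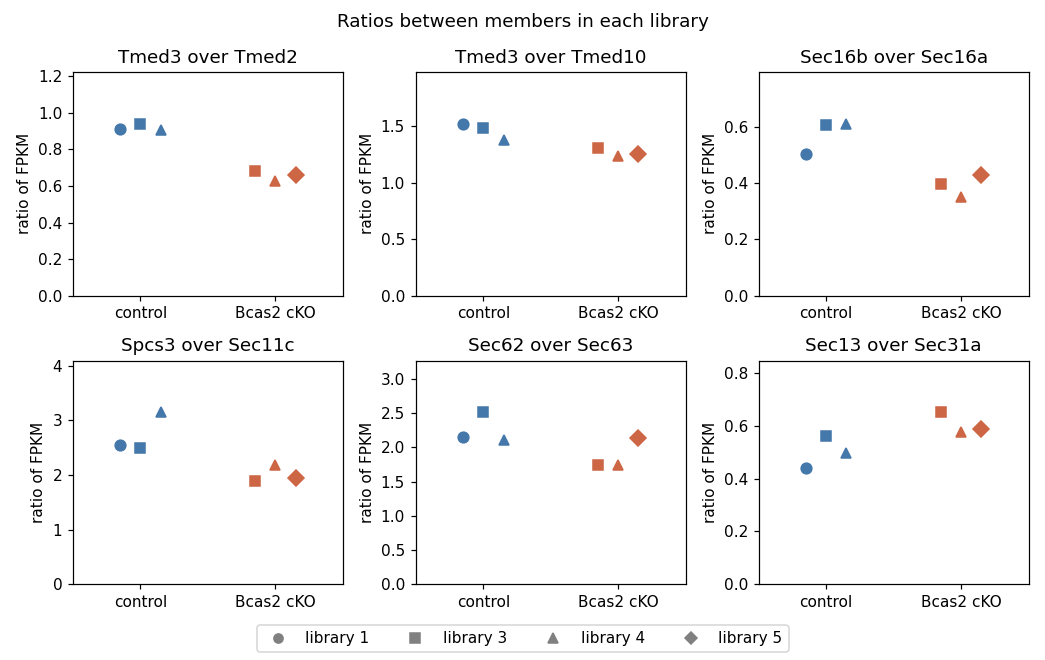
Ratio of the FPKM of 2 members (y axis, from 0) in each library, 3 control (blue) and 3 Bcas2 cKO (orange), marked by library number. The groups do not overlap for Tmed3 over Tmed2, Tmed3 over Tmed10, Sec16b over Sec16a, Spcs3 over Sec11c and Sec13 over Sec31a, and they overlap for Sec62 over Sec63, where Bcas2 cKO library 5 reaches 2.13.

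In all 19 ratios between members of 1 complex or paralog set were computed, and the groups did not overlap in 8. They were formed with the called members in view and carry no test. The Sec62 to Sec63 ratio, at 2.11 to 2.51 in control against 1.75 to 2.13 in Bcas2 cKO, was among those that overlapped, as were those of Sec23b to Sec23a, Sar1a to Sar1b, Copg1 to Copg2 and Sec11c to Sec11a.

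Of the Sec22 family, SNARE and related proteins of ER to Golgi traffic, none of 3 passed the test (limma, 0 also at an unadjusted p under 0.05 and 0 with voom). Sec22b, the SNARE, was at 29.7, 32.0 and 27.1 FPKM in control against 26.0, 31.1 and 22.9 FPKM in Bcas2 cKO. Sec22c was at 4.48, 3.43 and 3.56 FPKM in control against 4.63, 4.65 and 4.28 FPKM in Bcas2 cKO. Among the genes that share only the Sec name, Sec14l1 was at 21.2, 16.5 and 16.0 FPKM in control against 15.2, 16.8 and 14.7 FPKM in Bcas2 cKO, and Sec14l4 was at 2.40, 1.38 and 1.46 FPKM against 2.12, 1.09 and 2.26 FPKM. Neither passed the test. Sec14l2, Sec14l3, Sec14l5 and Sec1 had means of at most 0.258 FPKM and were not tested, and Sec1 was listed at 0 in all 3 control libraries and in 1 Bcas2 cKO library.

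The Bcas2 cKO libraries differed among themselves in these genes as a set. Library 5 was the lowest of its group for 46 of the 61 members (75.4%, against 35.9% of all genes tested) and library 4 the highest for 45 (73.8%, against 38.8%). No control library was the lowest or the highest for more than 25 members (41.0%). The FPKM of all members summed to 1833 to 1908 per control library, and to 1753, 1943 and 1574 in Bcas2 cKO libraries 3, 4 and 5. As a share of reads on genes the members held 0.706 to 0.816% in control, and 0.838, 0.860 and 0.671% in those 3 libraries. Library 3 thus lay below every control by FPKM and above every control by reads. The depth implied by the FPKM, divided by the reads on genes, was 0.890 to 1.02 in control against 1.02 to 1.11 in Bcas2 cKO, and the part of this scaling in the results was not tested. Library 5 also had the highest acinar share of reads, 6.50%, and the part of that share in the low values was not tested. Without library 5 the members' median log2 fold change was 0.04, and without library 4 it was -0.12, with all genes at -0.02 and -0.03.

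**Figure D4:**
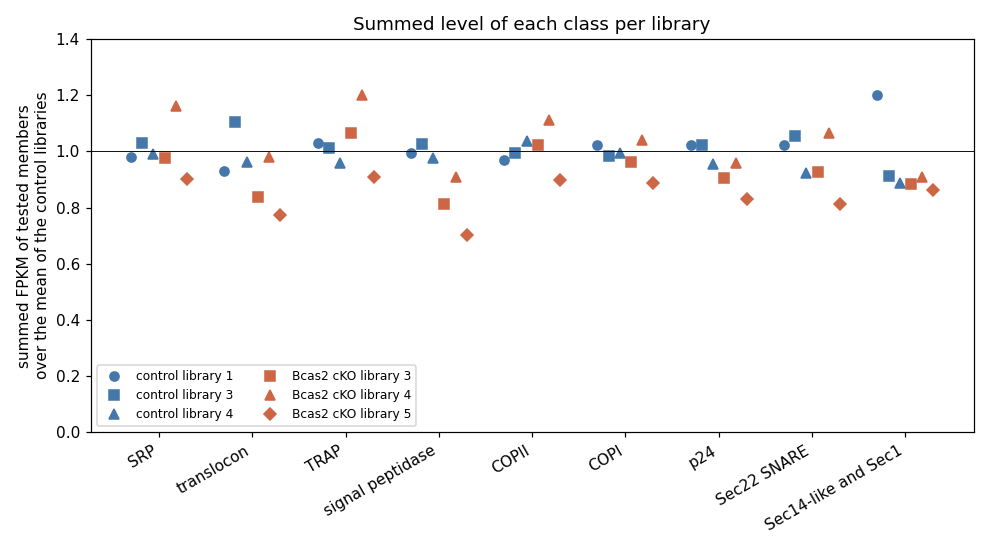
Summed FPKM of the tested members of each class in each library, divided by the mean of the 3 control libraries (y axis, from 0), with control in blue and Bcas2 cKO in orange. Bcas2 cKO library 5 (diamonds) is the lowest of all 6 libraries in each of the 9 classes, lowest for signal peptidase and highest, at 0.907, for TRAP, and the 3 Bcas2 cKO libraries all lie below the 3 control libraries only for signal peptidase.

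The calls of single members depended on single libraries. When each library was left out in turn, Sec16b was called in 4 of 6 fits, Sec62 and Tmed3 in 2, and Spcs3 and Tmed6 in 1, with 1 to 3 members called in each fit against 5. Without Bcas2 cKO library 5 no member fell, and Sec16b, Sec62, Spcs3 and Tmed3 then had adjusted p of 0.065, 0.056, 0.073 and 0.084. No fold change of these 5 genes changed sign in any of the 18 other fits.

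Properties that the name rule did not use were set against the change. The mean FPKM is no independent property, since the expression filter used it and it comes from the same values as the fold change. Tmed11, which passed that filter through the Bcas2 cKO libraries, is kept and has the highest log2 fold change (0.87). Over the 61 tested members, Pearson's r of the log2 fold change was -0.36 with the log2 mean FPKM (Spearman's rho -0.31), 0.03 with the highest number of exons in a coding transcript (0.16), -0.06 with the log2 genomic span (-0.01), and -0.235 with the log2 gene length in the deposited table (-0.03). These describe members that share libraries and, within a complex, subunits, and carry no test. Sec16b has up to 28 exons over 61698 bases, Sec62 8, Spcs3 5, Tmed6 4 and Tmed3 3, where the members ranged from 3 (Tmed3 among them) to 33 (Copa). Of the 65 members 26 are overlapped by a gene on the opposite strand in GENCODE M21, among the called ones Sec62, Spcs3 and Sec16b, whose overlapping genes had means of at most 1.20 FPKM.

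Genes that work next to the members were read from a separate list of 123 symbols. Of 114 tested, 6 fell and 2 rose, or 7.02% against 14.5% of all genes, and the median log2 fold change was -0.11. Tusc3 and Magt1, alternative subunits of the oligosaccharyltransferase that adds sugars to entering chains, both fell. Tusc3 went from 29.7 ± 2.15 to 21.3 ± 0.731 FPKM without overlap (log2 fold change -0.46, SE 0.08, limma adjusted p 0.015), and Magt1 at 40.3 ± 2.22 and 29.3 ± 3.72 FPKM (-0.45, SE 0.11, limma adjusted p 0.036). Nbas, part of a tether that receives COPI vesicles at the ER, fell from 13.8 ± 2.75 to 8.12 ± 1.70 FPKM, and Tmco1, an ER membrane protein found with the translocon, from 11.7 ± 0.796 to 8.93 ± 0.566 FPKM. The other falls were Trappc2l (-0.33) and the KDEL receptor gene Kdelr1 (-0.33), which returns escaped chaperones to the ER.

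The rises on that list were Cnih2, a cornichon cargo receptor gene, from 3.29 ± 0.885 to 6.83 ± 0.278 FPKM, and Trappc11, a tethering subunit, from 14.8 ± 0.466 to 20.1 ± 1.43 FPKM (SD, n = 3 each). Arcn1, the delta subunit of coatomer that the name rule does not take, was at 19.9 ± 1.10 and 17.6 ± 2.44 FPKM and was not called. By step, 1 of 14 SRP receptor and translocon partners, none of 16 tail-anchor and EMC insertion genes (limma, 3 at an unadjusted p under 0.05), 2 of 12 oligosaccharyltransferase genes, 1 of 23 exit and cargo receptor genes, 2 of 21 COPI partners and 2 of 28 tethers and SNAREs passed the test. With voom on recovered reads 8 of the 114 rose and none fell. Voom moved the median of all genes from -0.03 to 0.11, and that of this list was 0.04, below it as in the fit reported.

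Regulators and chaperones of the unfolded protein response, which act on many of these genes, were for the most part not called. Of 12 regulators Creb3, an ER-anchored transcription factor, rose from 18.4 ± 2.36 to 33.3 ± 1.22 FPKM, by 0.83 on the log2 scale (SE 0.10, limma adjusted p 0.0047), and none fell. Xbp1 was at 93.3, 103 and 93.7 FPKM in control against 109, 133 and 97.1 FPKM in Bcas2 cKO, with overlap (0.21, SE 0.13, limma adjusted p 0.31). Atf6 leaned the other way, at 16.8, 14.9 and 20.6 FPKM in control against 13.1, 15.4 and 9.69 FPKM in Bcas2 cKO, also with overlap (-0.44, SE 0.18, limma adjusted p 0.15). Ddit3, the stress factor CHOP, was at 18.4 ± 5.42 and 30.5 ± 5.61 FPKM (SD, n = 3 each), higher in all 3 Bcas2 cKO libraries without passing the test (0.72, SE 0.23, limma adjusted p 0.082). In 5 of the 12 regulators the groups did not overlap (41.7%, against 38.0% of all genes tested), 2 higher and 3 lower. Of 22 ER chaperones and degradation factors Syvn1, the ER ubiquitin ligase HRD1, rose from 23.6 ± 1.32 to 46.4 ± 2.32 FPKM and Canx, the lectin chaperone calnexin, fell from 90.2 ± 3.68 to 67.8 ± 6.99 FPKM. That is 9.09% called, against 14.5% of all genes tested, with 11 positive and 11 negative fold changes. In 6 of the 22 the groups did not overlap (27.3%, against 38.0%), 2 higher and 4 lower. Hspa5, the chaperone BiP that also seals the channel, was at 262, 277 and 264 FPKM in control against 307, 406 and 343 FPKM in Bcas2 cKO, higher in all 3 without passing the test (0.39, SE 0.13, limma adjusted p 0.092). P4hb (-0.27), Dnajc3 (-0.34) and Derl2 (-0.29) were lower in all 3, also without passing. Hspa5 and Xbp1 were highest in Bcas2 cKO library 4. That library was the highest of its group for 45 of the 61 tested members (73.8%, against 38.8% of all genes tested), all 4 TRAP genes among them. A relation between these 2 genes and the members was not tested.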

How the data were processed

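The authors deposited 1 table of FPKM per gene and library. Per the labels' protocols Trizol served for extraction and a SMARTer kit for the libraries, and the submitters' processing notes name GRCm38 (mm10). Aligner, counter, strand setting and scaling: not given in the sources used here. Multiplied by gene length, 100% of the FPKM above 0 were multiples of the worth of 1 read (within 0.01 of a read), so reads per gene were recovered for depth and for 1 alternative. Genes averaging at least 1 FPKM entered limma 3.58.1 (eBayes with trend, R 4.3.3) as log2(FPKM + 1), with a Benjamini-Hochberg threshold of 0.05 over all genes. Fold changes on this scale understate the change of low genes. The members, lists and tests were chosen with earlier results of these data known. Values by library were given for every called member and the 2 members of highest mean FPKM in each class, and for others where they bear on these. Sequences are from RefSeq, matched by symbol. Tables used Python 3.11.15, pandas 2.3.3 and matplotlib 3.10.9.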

Additional observations from a re-analysis of the deposited data

How the results depend on the processing

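Over all 13723 genes, 1993 passed the test (957 rose, 1036 fell), with 5 members and 8 genes of the neighbouring list. Without a filter beyond a mean above 0 the counts were 1144, 2 and 4. Leaving out 1 library gave 878 to 1950 genes, 1 to 3 members and 2 to 8 genes of the list, the fewest members without Bcas2 cKO library 4 or 5. A block on the numbers 3 and 4 that both groups share gave 538 genes, 0 members (9 at an unadjusted p under 0.05) and 0 genes of the list (11 at an unadjusted p under 0.05). The labels give no meaning to those numbers, and deviations of equally numbered libraries correlated at -0.15 for number 3 and 0.05 for number 4 across genes, so they were not taken as pairs. Under the other 10 settings the counts stayed within 1.5 times. Voom on recovered reads moved the split of all calls to 1744 rises and 551 falls, and that of the members to 2 and 2. Spcs3 and Tmed3 lost their calls with voom (adjusted p 0.098 and 0.094) and Sec13 gained one (0.017). Relative to all genes the members' median log2 fold change was -0.03 as reported, -0.02 with voom and -0.09 without Bcas2 cKO library 4. It turned positive with the block (0.09), without Bcas2 cKO library 5 (0.07) and with quantile normalization (0.01). Quantile normalization, median-of-ratios scaling, rescaling without hormone and acinar genes, and a mean of at least 5 FPKM each gave 2 rises and 4 falls among the members. The called members had 155 to 4281 reads each per library, the fewest for Tmed6. Tmed6 was not called in the fit without the eBayes trend, and the part of its depth in its call was not tested. Tmed11 and the 4 members below the filter had fewer reads, and depth limits what can be said of them.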

Other observations

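The processed pseudogene Tmed10-ps on chromosome 13 (35990861 to 35991520), whose name marks it as a copy of Tmed10, was at 11.1, 12.2 and 13.2 FPKM in control libraries 1, 3 and 4 and at 9.19, 10.3 and 6.33 FPKM in Bcas2 cKO libraries 3, 4 and 5. Tmed10 itself was at 49.3, 48.9 and 46.0 FPKM and at 40.1, 42.3 and 36.9 FPKM in the same libraries. In both genes the groups were apart, and the order of the control libraries differed between them. Spcs2-ps was at most at 0.333 FPKM in any library.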
